A study of Homo sapiens with 9 samples.

Results

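The 40 genes described here are listed as genes of the G2 phase and of mitosis. They were taken by symbol from the table of raw read counts, which holds 59453 gene names, and all 40 were found in it. All 40 also passed the filter on low counts, which left 16556 genes for testing. The study sequenced poly(A) RNA of MDA-MB-231, a human triple-negative breast cancer cell line of mesenchymal character, after treatment with the copper chelator TEPA. There were 3 groups of 3 libraries: untreated cells, cells treated with TEPA for 8 h, and cells treated with TEPA for 24 h. Both treated groups were compared with the same untreated group, for which no culture time is given. The labels give TEPA at 8 mM. A lower concentration is named for these cells in the RNA sequencing methods of the study and again in its results. Its general treatment methods list both concentrations for this line, so the dose is uncertain. The times are those of the sample titles and treatment fields, whereas the general treatment note of the labels mentions 24 h alone. The groups come from 1 cell line with no genetic change between the groups, and no label says that the replicates were separate cultures, so the p-values measure the spread between these libraries, which may be technical. The untreated libraries held 37640135, 46515260, 39937052 counts in total, those treated for 8 h held 40719360, 38989396, 37617385, and those treated for 24 h held 49342659, 42338742, 34633755. Levels are given as CPM, read counts scaled to a common total and for library composition. Of the genes that define the line, VIM, a mesenchymal intermediate filament, reached 3674 ± 124 CPM in untreated cells (SD, n = 3), CD44, an adhesion receptor, 859 ± 61.3 CPM, and EGFR 435 ± 39.0 CPM. ERBB2, the receptor that is not amplified in this line, was detected at 81.4 ± 5.11 CPM, and CDH1, the epithelial E-cadherin gene, at 0.624 ± 0.167 CPM. The estrogen receptor gene ESR1 had between 2 and 9 counts in each of the 9 libraries, and the progesterone receptor gene PGR had 0 counts, which allows up to 0.0834 CPM in the shallowest library (3 counts).

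Cells enter mitosis when cyclin B and CDK1 become active, with the CDC25 phosphatases, PLK1 and the Aurora kinases driving the switch. The chromosomes then attach to spindle microtubules through the kinetochore, under the watch of the spindle assembly checkpoint, until the anaphase-promoting complex (APC/C) with CDC20 releases them. The genes for these proteins are transcribed late in the cell cycle, under the MuvB complex with B-MYB (MYBL2) and FOXM1, and are repressed in resting cells by the DREAM complex. Their summed RNA is therefore widely read as a marker of proliferation in tumors.

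More of the G2/M genes were higher than lower after 8 h of TEPA, and more were lower than higher after 24 h. At 8 h, 23 of 40 members (57.5%) were higher than in untreated cells (edgeR's quasi-likelihood test, Benjamini-Hochberg adjusted p under 0.05), against 25.2% of all genes tested. There were 2 members (5%) that were lower, CDC25C and SPC25, against 24.5% of all genes tested. At 24 h, 5 members (12.5%) were higher, against 25.7% of all genes, and 20 (50%) were lower, against 26.8%. Between the times, 27 members (67.5%) were lower at 24 h than at 8 h, against 28.8% of all genes. By the same test 0 members were higher at 24 h than at 8 h, against 26% of all genes. The count was also 0 at an unadjusted p under 0.05, against 28.4% of all genes, and with DESeq2, against 21.4% of the genes it tested. The median log2 fold change of the 40 members was 0.13 at 8 h, −0.075 at 24 h and −0.22 between the times, and that of all 16556 genes was −0.0013, 0.0023 and −0.016. In bulk RNA a smaller share of cells in G2/M and less RNA per such cell cannot be told apart.

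These changes were small. A log2 fold change beyond 0.5 was reached at 8 h by 1 member that was higher (NUSAP1) and 0 that were lower, against 10.1% and 7.67% of all genes tested. Without untreated replicate 3 NUSAP1 was at 0.48 and no longer called, while MKI67 was at 0.51. At 24 h 0 members were higher beyond this limit and 2 were lower (CCNA2 and MYBL2), against 10.2% and 8.46%. CCNA2 fell inside the limit without untreated replicate 3 (−0.497) or 24 h replicate 2 (−0.490). Between the times 0 members were higher beyond this limit and 2 were lower (PLK1 and MYBL2), against 10.4% and 10.8%. The spread of all genes was wider than that of the members, as the plot of cumulative fold changes shows.

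**Figure D1:**
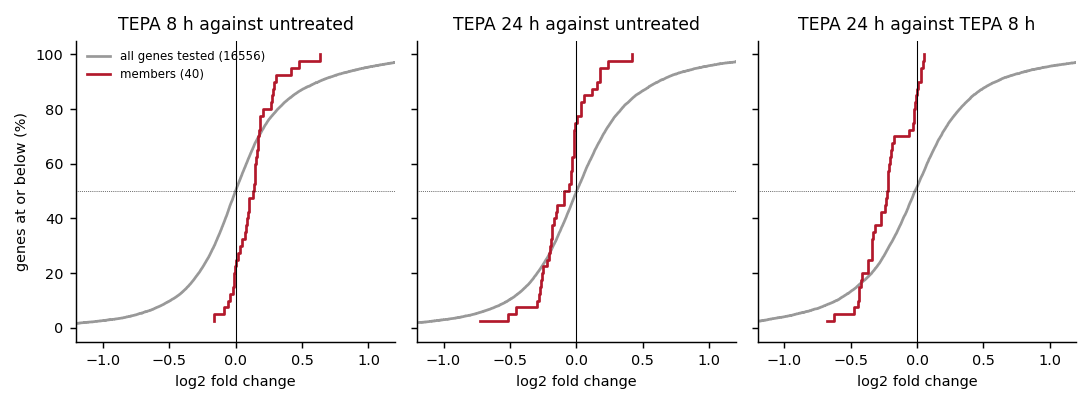
Cumulative share of genes (y axis, %) at or below each log2 fold change (x axis) in the 3 comparisons, for the 40 members (red) and all 16556 genes tested (grey). The members' curve crosses the 50% line at 0.13 at 8 h, at −0.075 at 24 h and at −0.22 between the times, and it rises more steeply than that of all genes in each panel.

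The summed level of the members was highest at 8 h and lowest at 24 h. Summed over the 40 genes, the level was 7026, 7556 and 7454 CPM in the untreated libraries, 8169, 8271 and 8208 CPM at 8 h and 6842, 6879 and 6839.9 CPM at 24 h. The 3 groups did not overlap, and the 8 h libraries were the highest. The means were 7345 ± 281, 8216 ± 51.5 and 6854 ± 22.2 CPM (SD, n = 3). Without scaling, the members' share of all counts was 0.700, 0.742 and 0.736% without TEPA, 0.803, 0.811 and 0.802% after 8 h and 0.707, 0.701 and 0.710% after 24 h of it. On this scale untreated replicate 1 lay just below the 24 h libraries, and the 8 h libraries were again the highest. Untreated replicate 1 was the lowest of its group for 29 of the 40 members. Leaving it out gave the members a median of 0.10 at 8 h, where 19 were then higher, against 22.5% of all genes in that fit, and of −0.11 at 24 h. The share of counts from the mitochondrially encoded genes was also highest at 8 h. It was 1.79, 2.91 and 2.13% in untreated cells, 3.98, 3.61 and 4.02% at 8 h and 2.02, 1.89 and 1.95% at 24 h. The 24 h values of this share lay inside the untreated range. With the mitochondrially encoded genes left out of the fit, 22 members were higher and 2 lower at 8 h. At 24 h 5 were higher and 20 lower, and 27 were lower between the times. In that fit 24.6% of all genes tested were higher and 25% lower at 8 h, 25.9% and 26.8% at 24 h, and 28.3% were lower between the times.

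**Figure D2:**
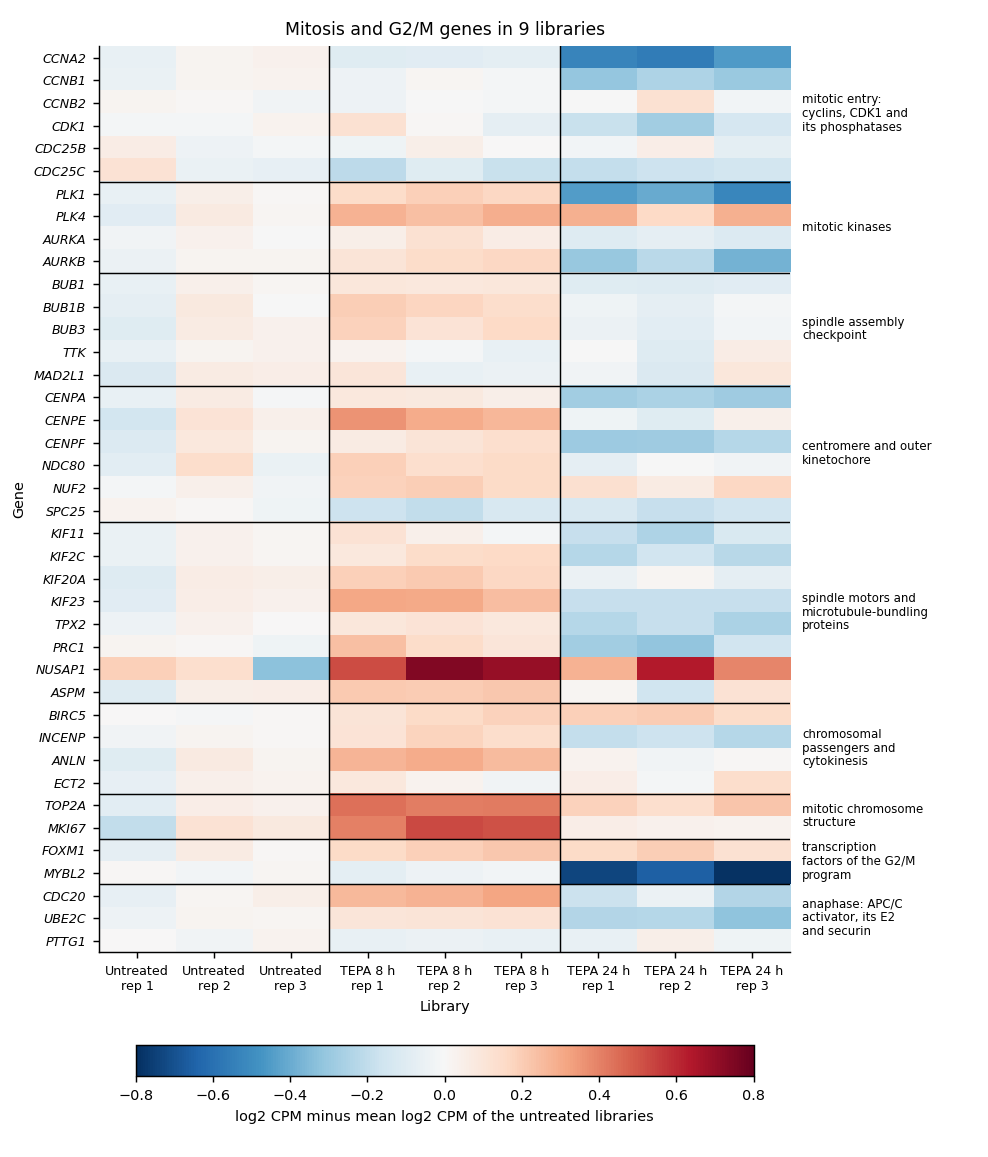
Log2 CPM of each member (rows, by role) in each of the 9 libraries (columns), minus the gene's mean log2 CPM in the 3 untreated libraries (color scale, log2 units). The 8 h libraries are red for most members, with TOP2A, MKI67 and NUSAP1 the deepest, and the 24 h libraries are blue for CCNA2, CCNB1, PLK1, AURKB, MYBL2 and others.

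Some sequence letters were more common in the members' promoters than in those of all genes tested. RefSeq promoter windows (GRCh38.p14, from 250 bases before to 50 bases after each start) were matched by symbol for 33 of the 40 members. AURKA, BUB3, TTK, TPX2, BIRC5, FOXM1 and UBE2C had no entry. The letters TTTGAA (or TTCAAA on the other strand), the core of the cell cycle homology region that MuvB contacts, were present in 22 of 33 windows (66.7%), against 9.65% of the 11042 windows of genes tested and 15.4% of all 27305 windows. CCAAT (or ATTGG), the box that NF-Y contacts, was present in 23 of 33 (69.7%), against 36.5% of the genes tested. Both were present in 17 of 33 (51.5%), against 4.10%. TTTGAA lay between 50 bases before and 50 bases after the start in 17 members (51.5%), against 2.74%. The letters TTCGAA (their own reverse complement) were present in 2 of 33 (6.06%, against 1.70%), and GGCGGG (or CCCGCC), common in GC-rich promoters, in 27 of 33 (81.8%, against 69.7%). Among genes outside the 40, TTTGAA was present in 37 of 64 windows (57.8%) of other mitosis genes and in 1 of 34 (2.94%) of DNA replication and S-phase genes. A match describes the letters and is not evidence of a bound site.

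The windows of NUSAP1, MKI67 and TOP2A are shown because these were the members with TTTGAA that differed most from untreated cells at 8 h. Each runs 5′ to 3′ along the gene's strand, from 250 bases before the start to 30 bases after it, with TTTGAA or TTCAAA and CCAAT or ATTGG in capitals. NUSAP1 is at chr15:41332631-41332910 on the plus strand, MKI67 at chr10:128126394-128126673 on the minus strand and TOP2A at chr17:40417867-40418146 on the minus strand.
NUSAP1: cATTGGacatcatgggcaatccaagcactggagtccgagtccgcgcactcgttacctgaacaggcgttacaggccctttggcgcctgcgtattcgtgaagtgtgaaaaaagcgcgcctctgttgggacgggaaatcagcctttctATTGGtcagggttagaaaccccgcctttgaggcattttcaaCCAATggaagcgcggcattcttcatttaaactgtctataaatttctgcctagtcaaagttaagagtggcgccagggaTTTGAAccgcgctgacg
MKI67: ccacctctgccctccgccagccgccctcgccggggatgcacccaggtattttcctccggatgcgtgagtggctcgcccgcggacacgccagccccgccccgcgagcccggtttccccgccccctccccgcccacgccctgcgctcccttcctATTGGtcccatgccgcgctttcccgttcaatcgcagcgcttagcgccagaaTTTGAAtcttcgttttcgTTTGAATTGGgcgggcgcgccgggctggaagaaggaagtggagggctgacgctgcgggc
TOP2A: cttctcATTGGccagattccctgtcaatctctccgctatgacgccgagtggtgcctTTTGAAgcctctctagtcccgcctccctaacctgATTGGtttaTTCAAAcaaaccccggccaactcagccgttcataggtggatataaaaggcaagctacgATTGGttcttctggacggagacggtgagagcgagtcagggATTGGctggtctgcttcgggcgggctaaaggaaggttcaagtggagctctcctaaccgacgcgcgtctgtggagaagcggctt

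In NUSAP1 the TTTGAA began 14 bases after the start, beside 3 CCAAT boxes counted on both strands. MKI67 held TTTGAA at positions −47 and −29, where the second shares letters with an ATTGG, and TOP2A held it at −194 and, on the other strand, at −151, with 4 CCAAT boxes. At 8 h the median log2 fold change was 0.17 over the 22 members with TTTGAA, of which 13 (59.1%) were higher and 1 (4.55%) lower. It was 0.0056 over the 11 without it, of which 5 (45.5%) were higher and 1 (9.09%) lower, against 25.2% and 24.5% of all genes tested. At 24 h the medians were −0.040 with TTTGAA and −0.17 without, with 45.5% and 63.6% lower, against 26.8% of all genes, and between the times the medians were −0.23 and −0.27. For CCAAT the order was the reverse at both times. At 8 h the median was 0.097 over the 23 members with CCAAT, of which 47.8% were higher, and 0.16 over the 10 without it, of which 70% were higher. At 24 h the medians were −0.15 and −0.035, with 60.9% and 30% lower, and between the times −0.24 and −0.20. These values are a description, and the differences were not tested.

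Among the genes of mitotic entry, CCNA2, CCNB1 and CDK1 were downregulated at 24 h and were not called at 8 h. CCNA2, the cyclin of S phase and G2 (chr4:121816444-121823883, GRCh38), was at 132, 139 and 141 CPM in the untreated libraries, 128, 129 and 130.1 CPM at 8 h and 95.2, 92.9 and 100.4 CPM at 24 h. The 24 h libraries were the lowest, and no group overlapped another. Its log2 fold change was −0.51 (SE 0.040, adjusted p = 4.25e-08) at 24 h and −0.089 (SE 0.040, adjusted p = 0.0747) at 8 h, where DESeq2 and the fit without untreated replicate 1 called it lower. CCNB1, the cyclin that activates CDK1 in mitosis (chr5:69167135-69178245), was at 328, 345 and 347 CPM in the untreated libraries, 331, 344 and 336 CPM at 8 h and 274, 287 and 277 CPM at 24 h. Its 8 h libraries fell inside the untreated range, while all 24 h libraries were below it. The log2 fold change at 24 h was −0.28 (SE 0.036, adjusted p = 8.07e-06), and at 8 h its 95% interval was −0.091 to 0.063. CDK1, the mitotic cyclin-dependent kinase, was at 154, 154 and 159 CPM in the untreated libraries, 169, 156 and 148 CPM at 8 h and 137, 128 and 142 CPM at 24 h. The 8 h values spread across the untreated range, and the 24 h values were below it, with a log2 fold change of −0.20 (SE 0.049, adjusted p = 0.00337).

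CCNB2, a second mitotic cyclin B, was at 103.1, 102 and 99.4 CPM in the untreated libraries, 98.9, 101 and 100.3 CPM at 8 h and 101, 110.3 and 99.9 CPM at 24 h. Its groups overlapped, and the 95% intervals of its log2 fold changes were −0.11 to 0.070 at 8 h and −0.055 to 0.12 at 24 h. CDC25B, a phosphatase that activates CDK1 in G2, also overlapped in all groups, with intervals of −0.083 to 0.095 and −0.11 to 0.073. CDC25C, the phosphatase of the mitotic switch, was at 32.9, 29.3 and 29.0 CPM in the untreated libraries, 26.3, 28.4 and 26.9 CPM at 8 h and 26.5, 27.1 and 27.4 CPM at 24 h. All treated libraries were below the untreated ones, and the log2 fold change was −0.16 (SE 0.058, adjusted p = 0.0311) at 8 h and −0.17 (SE 0.057, adjusted p = 0.0204) at 24 h. With the replicate number as a block its 8 h call was lost, as it was without untreated replicate 1 or 8 h replicates 1 or 3 (log2 fold change −0.16 to −0.10). Its 24 h call was lost without untreated replicate 1 or 24 h replicate 1 (log2 fold change −0.16 to −0.11).

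Of the 4 genes listed as mitotic kinases, PLK1 and AURKB rose at 8 h and fell below untreated cells at 24 h. PLK1, which acts at mitotic entry, on the spindle poles and in cytokinesis (chr16:23677656-23690367), was at 224, 241 and 235 CPM in the untreated libraries, 258, 266 and 262 CPM at 8 h and 171, 176 and 162 CPM at 24 h. The 3 groups were fully apart, with 8 h the highest and 24 h the lowest. Its log2 fold change was 0.17 (SE 0.040, adjusted p = 0.00224) at 8 h and −0.46 (SE 0.040, adjusted p = 1.46e-07) at 24 h, a difference of −0.63 (SE 0.040, adjusted p = 5.14e-09) between the times. AURKB, the kinase of the chromosomal passenger complex, was at 178, 187 and 187 CPM in the untreated libraries, 198, 204 and 206 CPM at 8 h and 149, 158 and 141 CPM at 24 h. It followed the same order without overlap, with 0.14 (SE 0.042, adjusted p = 0.0127) at 8 h and −0.30 (SE 0.043, adjusted p = 2.42e-05) at 24 h, and its 8 h call was lost without 8 h replicate 3 (log2 fold change 0.12).

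AURKA, the centrosomal Aurora kinase, was at 238, 248 and 242 CPM in the untreated libraries, 251, 265 and 253 CPM at 8 h and 226, 231 and 225 CPM at 24 h. The groups did not overlap, but only the fall at 24 h passed the test, with a log2 fold change of −0.096 (SE 0.035, adjusted p = 0.0308) against 0.077 (SE 0.035, adjusted p = 0.0799) at 8 h. The 24 h call of AURKA was lost without untreated replicates 2 or 3 or 24 h replicates 1 or 3 (log2 fold change −0.10 to −0.082), and with upper-quartile factors AURKA was called at 8 h instead. PLK4, the kinase that starts centriole duplication, was at 41.2, 46.1 and 44.3 CPM in the untreated libraries, 53.2, 51.7 and 53.5 CPM at 8 h and 53.3, 48.9 and 53.4 CPM at 24 h. All treated libraries were above the untreated ones, and the times overlapped, with log2 fold changes of 0.27 (SE 0.051, adjusted p = 0.00045) and 0.24 (SE 0.051, adjusted p = 0.000881).

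**Figure D3:**
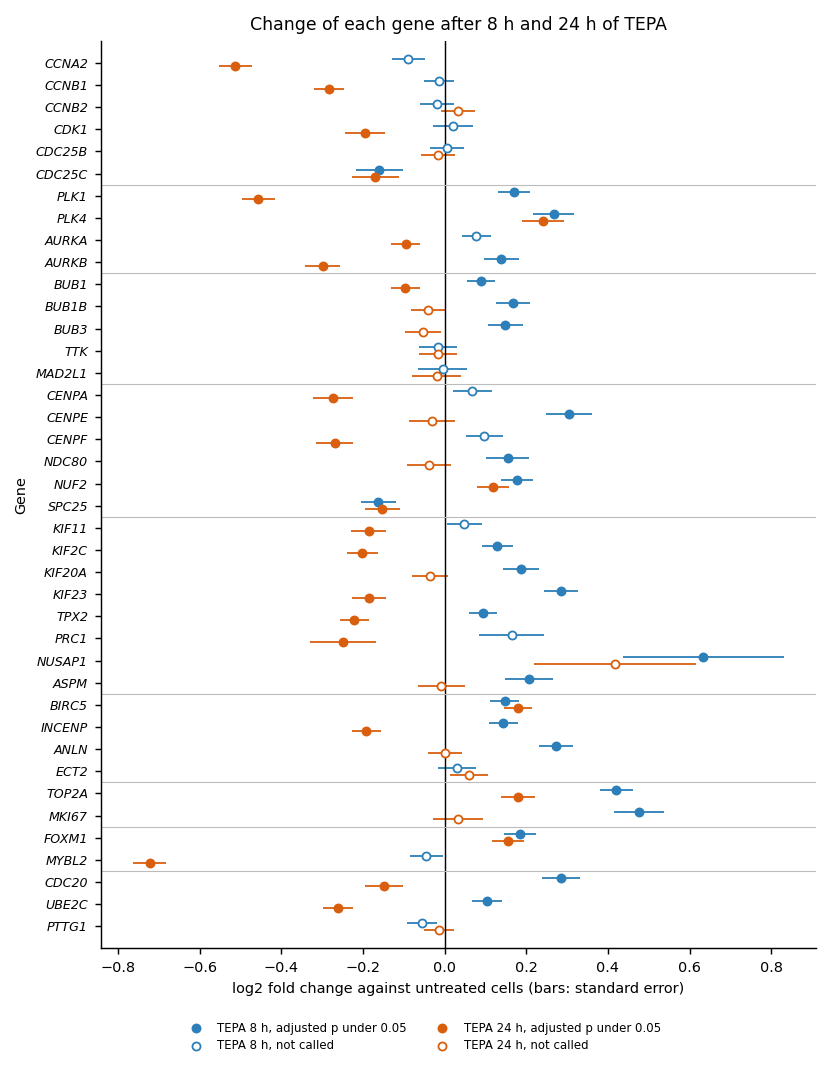
Log2 fold change against untreated cells (x axis, log2 units, bars show the SE) of each member (y axis, in the order of their roles) after 8 h (blue) and 24 h (orange) of TEPA, where filled points passed an adjusted p under 0.05. The orange point lies to the left of the blue one for most genes, and it lies near the blue one for CDC25C, PLK4, SPC25, BIRC5 and FOXM1.

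Of the 5 spindle assembly checkpoint genes, 3 (60%) were higher at 8 h, against 25.2% of all genes tested, and 1 (20%) was lower at 24 h, against 26.8%. BUB1B, which encodes the checkpoint inhibitor BUBR1, was at 104, 116 and 109 CPM in the untreated libraries, 126, 124 and 121 CPM at 8 h and 107, 105 and 109 CPM at 24 h. The 8 h libraries were the highest and the 24 h libraries fell inside the untreated range, with a log2 fold change of 0.17 (SE 0.042, adjusted p = 0.00333) at 8 h and a 95% interval of −0.13 to 0.047 at 24 h. BUB3, its partner at the kinetochore, did likewise, at 0.15 (SE 0.043, adjusted p = 0.00957) at 8 h and an interval of −0.15 to 0.039 at 24 h, where the fit without untreated replicate 1 called it lower (−0.10). BUB1, a checkpoint kinase of the kinetochore, had means of 196 ± 6.76, 209 ± 0.762 and 183 ± 0.849 CPM in the 3 groups (SD, n = 3). These groups did not overlap, and its log2 fold changes were 0.089 (SE 0.035, adjusted p = 0.0462) and −0.096 (SE 0.035, adjusted p = 0.0298). The 8 h call of BUB1 was lost without untreated replicates 1 or 3 or 8 h replicates 1, 2 or 3 (log2 fold change 0.059 to 0.090), and its 24 h call without untreated replicates 2 or 3 or 24 h replicates 1 or 2 (log2 fold change −0.098 to −0.079). TTK, the kinase that starts checkpoint signaling, and MAD2L1, which binds CDC20, passed neither test. Their 95% intervals were −0.12 to 0.084 and −0.13 to 0.12 at 8 h and −0.12 to 0.084 and −0.15 to 0.11 at 24 h.

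At the centromere and kinetochore, members moved in different directions. CENPE, the kinetochore motor, was at 114, 136 and 129 CPM in the untreated libraries, 162, 155 and 151 CPM at 8 h and 123, 118 and 129.8 CPM at 24 h. The 8 h libraries were the highest, and those of 24 h lay inside the untreated range. The log2 fold change was 0.30 (SE 0.056, adjusted p = 0.000326) at 8 h, with an interval of −0.15 to 0.087 at 24 h. CENPA, the histone H3 variant of centromeres, and CENPF, an outer kinetochore protein of G2 and mitosis, were lower at 24 h, by log2 fold changes of −0.27 (SE 0.048, adjusted p = 0.000189) and −0.27 (SE 0.045, adjusted p = 0.00011). Neither was called at 8 h, with intervals of −0.035 to 0.17 and 0.0019 to 0.19, although CENPF was called with upper-quartile factors or without untreated replicate 2 (0.13).

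NDC80, NUF2 and SPC25 encode subunits of the same tetrameric complex that holds microtubule ends. SPC25 was at 45.8, 45.1 and 43.7 CPM in the untreated libraries, 40.05, 39.2 and 41.0 CPM at 8 h and 41.1, 39.5 and 40.4 CPM at 24 h. All treated libraries were below the untreated ones, and the log2 fold change was −0.16 (SE 0.043, adjusted p = 0.00538) at 8 h and −0.15 (SE 0.043, adjusted p = 0.00696) at 24 h. NUF2 was higher at both times, at 0.18 (SE 0.040, adjusted p = 0.00164) and 0.12 (SE 0.040, adjusted p = 0.0198), and the 24 h call was lost without untreated replicate 3 or 24 h replicates 1 or 3 (log2 fold change 0.096 to 0.11). NDC80 was higher at 8 h, at 0.15 (SE 0.053, adjusted p = 0.0244), where 1 treated library lay inside the untreated range and the call was lost without untreated replicates 1 or 3 or 8 h replicates 1 or 3 (log2 fold change 0.11 to 0.15). At 24 h its interval was −0.15 to 0.075.

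Of the 8 genes of spindle motors and bundling proteins, 6 (75%) were higher at 8 h, against 25.2% of all genes tested, and 5 (62.5%) were lower at 24 h, against 26.8%. KIF23, the central spindle motor MKLP1 (chr15:69414246-69448427), was at 118, 130.4 and 129 CPM in the untreated libraries, 155, 155 and 149 CPM at 8 h and 111, 111 and 110.4 CPM at 24 h. Its 3 groups did not overlap, and the 24 h libraries were nearly equal. The log2 fold change was 0.28 (SE 0.041, adjusted p = 3.35e-05) at 8 h, −0.19 (SE 0.041, adjusted p = 0.0013) at 24 h and −0.47 (SE 0.041, adjusted p = 1.32e-07) between the times. TPX2, which builds microtubules around chromosomes and activates Aurora A, had means of 552 ± 15.1, 589 ± 5.20 and 473 ± 11.9 CPM. It was higher at 8 h, at 0.094 (SE 0.035, adjusted p = 0.0365), and lower at 24 h, at −0.22 (SE 0.035, adjusted p = 7.12e-05), and the 8 h call was lost without untreated replicates 1 or 3 or 8 h replicates 1, 2 or 3 (log2 fold change 0.071 to 0.093). KIF2C, a microtubule depolymerase, was at 0.13 (SE 0.038, adjusted p = 0.0106) at 8 h and −0.20 (SE 0.038, adjusted p = 0.000345) at 24 h, and the 8 h call was lost without 8 h replicates 2 or 3 (log2 fold change 0.11 to 0.12).

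KIF11, the motor that separates the spindle poles, was not called at 8 h (95% interval −0.044 to 0.14) and was lower at 24 h, at −0.19 (SE 0.043, adjusted p = 0.00192). KIF20A, the passenger transport motor MKLP2, and ASPM, a spindle pole protein, were higher at 8 h, at 0.19 (SE 0.044, adjusted p = 0.00234) and 0.21 (SE 0.058, adjusted p = 0.0077), and their 24 h intervals were −0.13 to 0.058 and −0.13 to 0.11. NUSAP1 and PRC1, which bundle spindle microtubules, were the least counted members. NUSAP1 had 41, 48 and 30 raw counts without TEPA, 55, 61 and 57 after 8 h and 59, 64 and 45 after 24 h, or 1.09, 1.05 and 0.761 CPM in the untreated libraries, 1.37, 1.59 and 1.55 CPM at 8 h and 1.16, 1.48 and 1.25 CPM at 24 h. The 8 h libraries were above the untreated ones, and the times overlapped. Its 8 h log2 fold change of 0.63 (SE 0.20, adjusted p = 0.0144) was the largest of the members, and the call was lost without untreated replicate 3 or 8 h replicate 2 (log2 fold change 0.48 to 0.59). In the GENCODE release 44 annotation 86.8% of its exon bases belong also to other genes on the same strand, and for PRC1 57.6%, so their counts are uncertain. PRC1 had a log2 fold change of 0.16 (SE 0.079, adjusted p = 0.0992) at 8 h and −0.25 (SE 0.081, adjusted p = 0.0167) at 24 h, the latter not called by DESeq2 or without 24 h replicates 1 or 2 (log2 fold change −0.23 to −0.22). Without NUSAP1 and PRC1, 22 members were higher and 2 lower at 8 h, 5 higher and 19 lower at 24 h, and 26 lower between the times. Of the 38 that were left these are 57.9% and 5.26%, 13.2% and 50% and 68.4%, against 25.2% and 24.5%, 25.7% and 26.8%, and 28.8% of all genes.

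Among the chromosomal passengers and cytokinesis genes, BIRC5 and INCENP, which encode partners in one complex, went apart at 24 h. BIRC5, which encodes survivin (chr17:78214186-78225636), was at 151, 149.7 and 152 CPM in the untreated libraries, 162, 168 and 172 CPM at 8 h and 172, 174 and 167 CPM at 24 h. All treated libraries were above the untreated ones, with log2 fold changes of 0.15 (SE 0.035, adjusted p = 0.00273) at 8 h and 0.18 (SE 0.035, adjusted p = 0.000496) at 24 h. INCENP, the scaffold of the complex, had means of 159 ± 2.95, 175 ± 4.16 and 139 ± 2.93 CPM. It was higher at 8 h, at 0.14 (SE 0.036, adjusted p = 0.00334), and lower at 24 h, at −0.19 (SE 0.036, adjusted p = 0.000302). ANLN, the contractile ring scaffold anillin, rose from 349 ± 21.0 to 421 ± 6.35 CPM at 8 h, a log2 fold change of 0.27 (SE 0.042, adjusted p = 6.00e-05), and its interval at 24 h was −0.087 to 0.090. ECT2, the exchange factor that activates RhoA for the ring, was at 149, 160.3 and 159 CPM in the untreated libraries, 166, 159 and 153 CPM at 8 h and 162, 154 and 172 CPM at 24 h. Its groups overlapped, with 95% intervals of −0.069 to 0.13 and −0.040 to 0.16.

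TOP2A and MKI67 act on the structure of mitotic chromosomes and were, after NUSAP1, the most changed members at 8 h. MKI67, which encodes the Ki-67 proliferation marker that coats mitotic chromosomes (chr10:128096659-128126423), was at 371, 459 and 449 CPM in the untreated libraries, 562, 613 and 604 CPM at 8 h and 439.6, 435 and 433 CPM at 24 h. The 8 h libraries were all above the others, and the 24 h libraries lay inside the untreated range. The log2 fold change was 0.48 (SE 0.061, adjusted p = 1.16e-05), or 1.39-fold, at 8 h, with an interval of −0.098 to 0.16 at 24 h and −0.44 (SE 0.061, adjusted p = 1.65e-05) between the times. TOP2A, the DNA topoisomerase that untangles sister chromatids (chr17:40388525-40417896), was at 417, 459.8 and 454 CPM in the untreated libraries, 601, 589 and 590.5 CPM at 8 h and 504, 486 and 517 CPM at 24 h. All 3 groups were apart, and both treated groups were above untreated cells. The log2 fold changes were 0.42 (SE 0.041, adjusted p = 6.82e-07), or 1.34-fold, at 8 h and 0.18 (SE 0.041, adjusted p = 0.00158) at 24 h.

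**Figure D4:**
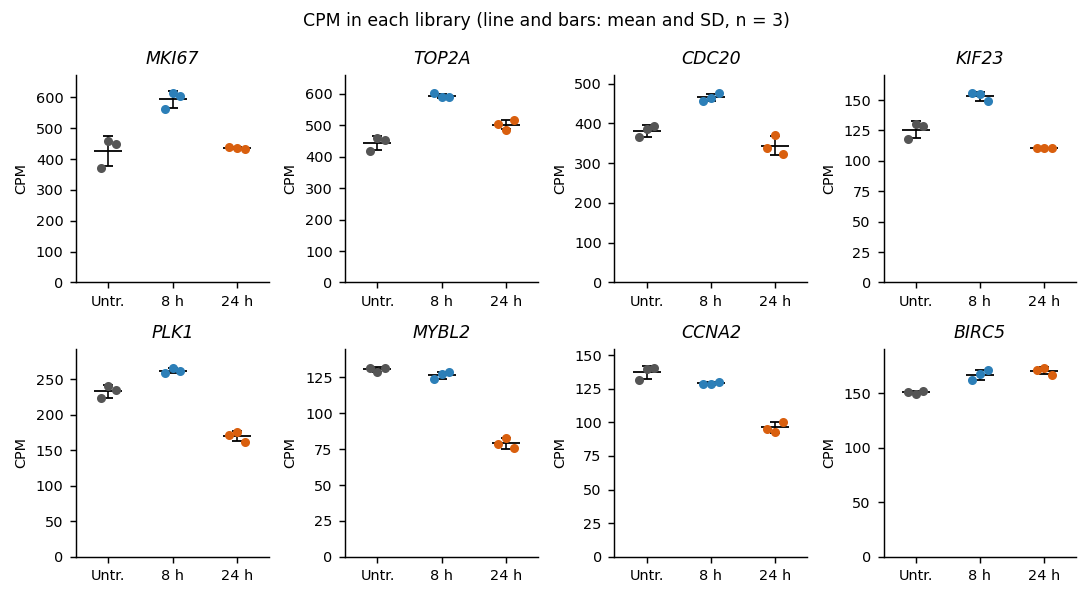
CPM (y axis, linear, from 0) of 8 members in each library of untreated cells and cells treated with TEPA for 8 h and 24 h, with the mean and SD of each group (n = 3). MKI67, TOP2A, CDC20 and KIF23 are highest at 8 h, PLK1, MYBL2 and CCNA2 are lowest at 24 h, and BIRC5 is above untreated cells at both times.

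The transcription factors of the G2/M program separated. MYBL2, which encodes B-MYB, the factor that joins MuvB before mitosis (chr20:43667019-43716495), was at 132, 129 and 132 CPM in the untreated libraries, 124, 127 and 129 CPM at 8 h and 78.5, 83.1 and 75.6 CPM at 24 h. Its 8 h libraries reached into the untreated range, and all 24 h libraries were far below it. The log2 fold change at 24 h was −0.72 (SE 0.040, adjusted p = 1.06e-09), or 0.606-fold, the lowest of the members, while at 8 h its interval was −0.13 to 0.039. FOXM1, which follows B-MYB on the same promoters, was at 274, 301 and 289.9 CPM in the untreated libraries, 320.3, 329 and 334 CPM at 8 h and 320.2, 329.8 and 313 CPM at 24 h. All treated libraries were above the untreated ones and the times overlapped, with log2 fold changes of 0.18 (SE 0.039, adjusted p = 0.00111) and 0.15 (SE 0.039, adjusted p = 0.00364). Between the times MYBL2 differed by −0.68 (SE 0.040, adjusted p = 2.52e-09), and FOXM1 had an interval of −0.11 to 0.054.

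Of the anaphase genes, CDC20 and UBE2C rose at 8 h and fell at 24 h. CDC20, the activator of the APC/C, was at 365, 386 and 394 CPM in the untreated libraries, 457, 463 and 475 CPM at 8 h and 339, 369 and 324 CPM at 24 h. The 8 h libraries were all above the others, and at 24 h replicate 2 reached into the untreated range. The log2 fold change was 0.29 (SE 0.046, adjusted p = 9.97e-05) at 8 h and −0.15 (SE 0.046, adjusted p = 0.0127) at 24 h, where the call was lost without untreated replicate 3 or 24 h replicates 1 or 3 (log2 fold change −0.14 to −0.11). UBE2C, the ubiquitin-conjugating enzyme of the APC/C, had means of 251 ± 6.07, 269.7 ± 1.69 and 209 ± 7.79 CPM. It was at 0.10 (SE 0.037, adjusted p = 0.0275) at 8 h and at −0.26 (SE 0.037, adjusted p = 2.13e-05) at 24 h, and the 8 h call was lost without untreated replicates 1 or 3 or 8 h replicates 1, 2 or 3 (log2 fold change 0.082 to 0.10). PTTG1, which encodes securin, the target whose loss starts anaphase, was at 152, 149 and 154 CPM in the untreated libraries, 146, 147 and 145 CPM at 8 h and 146, 157 and 148 CPM at 24 h. Its 8 h libraries were just below the untreated ones without passing the test (−0.055 (SE 0.037, adjusted p = 0.234)), and its interval at 24 h was −0.093 to 0.065.

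Read across both times, the members fell into 6 patterns, each given beside its share of all 16556 genes tested. A rise at 8 h and a fall below untreated cells at 24 h passed the test for 9 members, PLK1, AURKB, BUB1, KIF2C, KIF23, TPX2, INCENP, CDC20 and UBE2C, or 22.5% of the members against 3.45% of all genes. Another 9 were higher at 8 h and not called at 24 h, namely BUB1B, BUB3, CENPE, NDC80, KIF20A, ASPM, ANLN, MKI67 and NUSAP1 (22.5% against 10.3%). A further 9 were not called at 8 h and lower at 24 h, namely CCNA2, CCNB1, CDK1, AURKA, CENPA, CENPF, KIF11, PRC1 and MYBL2 (22.5% against 10.8%). There were 5 members higher at both times, PLK4, NUF2, BIRC5, TOP2A and FOXM1 (12.5% against 11.4%), and 2 lower at both, CDC25C and SPC25 (5% against 12.6%). The 6 called at neither time were CCNB2, CDC25B, TTK, MAD2L1, ECT2 and PTTG1 (15% against 28.7%). Since both times share the untreated libraries, the direct comparison of 24 h with 8 h is the test of change between them. It called lower every member of the first 3 patterns except NUSAP1, whose 95% interval was −0.62 to 0.18, and beside them TOP2A. The calls of all 27 remained in 6 fits without 1 library each and in 8 other fits, as did 77.2% of the calls of lower levels among all genes. Of the 23 members higher at 8 h, 16 (69.6%) were called in all such fits, against 72.3% of all genes called higher. Of the 20 lower at 24 h, 15 (75%) were, against 78.8% of all genes called lower, so these shares lay near those of all genes.

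Members not called between the times included PLK4, FOXM1, BIRC5 and NUF2, with 95% intervals of −0.13 to 0.081, −0.11 to 0.054, −0.042 to 0.11 and −0.14 to 0.025. Those of CDC25C and SPC25, lower at both times, were −0.13 to 0.11 and −0.083 to 0.10. The members uncalled at either time had intervals of −0.036 to 0.14 for CCNB2, −0.11 to 0.067 for CDC25B and −0.10 to 0.10 for TTK. They were −0.14 to 0.11 for MAD2L1, −0.069 to 0.13 for ECT2 and −0.038 to 0.12 for PTTG1. None of these intervals, which exclude that of NUSAP1, reached 0.15 in either direction.

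Levels between genes were compared per length, as CPM per kilobase of exon in untreated cells. The members ranged widely, with a median of 35.2 CPM per kb. The most abundant were UBE2C at 195, CDC20 at 189.6, TPX2 at 153 and CCNB1 at 139.8 CPM per kb. The lowest were NUSAP1 at 0.268 and PRC1 at 1.43 CPM per kb, both with shared exons, followed by CDC25C at 9.13 CPM per kb. Without NUSAP1 and PRC1 the highest level was 21.4 times the lowest.

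Among 76 other mitosis genes, the calls leaned to higher levels at 8 h and to lower levels at 24 h. At 8 h 32 were higher and 9 lower, at 24 h 16 were higher and 35 lower, and between the times 10 were higher and 43 lower, with medians of 0.070, −0.086 and −0.17. These are 42.1% and 11.8% of the list at 8 h, 21.1% and 46.1% at 24 h and 13.2% and 56.6% between the times. Of all genes tested, 25.2% and 24.5% were higher and lower at 8 h, 25.7% and 26.8% at 24 h, and 26% and 28.8% between the times. TROAP, a spindle-associated protein, had a mean of 75.9 CPM in untreated cells, 113 at 8 h and 60.8 at 24 h. Its log2 fold change was 0.57 (SE 0.047, adjusted p = 1.28e-07) at 8 h and −0.89 (SE 0.047, adjusted p = 8.51e-10) between the times, the widest swing of the list. MASTL, the Greatwall kinase that shields mitotic phosphorylation, was lower at 8 h (−0.33 (SE 0.036, adjusted p = 2.75e-06)) and at 24 h (−0.19 (SE 0.036, adjusted p = 0.000412)). PBK, a mitotic kinase, was also lower at both, at −0.29 (SE 0.050, adjusted p = 0.000186) and −0.47 (SE 0.050, adjusted p = 1.21e-06), whereas CENPH, an inner kinetochore protein, was higher at 24 h, at 0.46 (SE 0.072, adjusted p = 5.85e-05).

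DNA replication and S-phase genes, which are expressed before the G2/M genes in each cycle, were called in both directions at each time, at shares near those of all genes tested at 8 h. Of 40, 9 were higher and 12 lower at 8 h, 7 higher and 14 lower at 24 h, and 9 higher and 14 lower between the times, with medians of −0.0018, −0.055 and −0.058. These are 22.5% and 30% of the list at 8 h, 17.5% and 35% at 24 h and 22.5% and 35% between the times. The shares of all genes tested are 25.2% and 24.5%, 25.7% and 26.8%, and 26% and 28.8%. MCM6, of the replicative helicase, was lower at both times, at −0.44 (SE 0.035, adjusted p = 9.96e-08) and −0.35 (SE 0.035, adjusted p = 5.22e-07), as was CDC6, which loads it, at −0.26 (SE 0.040, adjusted p = 7.34e-05) and −0.46 (SE 0.040, adjusted p = 1.42e-07). PCNA, the polymerase clamp, was lower at 8 h, at −0.28 (SE 0.035, adjusted p = 6.97e-06), with an interval of −0.0042 to 0.14 at 24 h. POLE, the leading-strand polymerase, was higher at 8 h, at 0.71 (SE 0.052, adjusted p = 4.18e-08). Of the E cyclins of S phase entry, CCNE1 was higher at 8 h, at 0.36 (SE 0.077, adjusted p = 0.00117), and lower at 24 h, at −0.25 (SE 0.079, adjusted p = 0.0156), while CCNE2 was lower at both, at −0.25 (SE 0.061, adjusted p = 0.00325) and −0.32 (SE 0.061, adjusted p = 0.000393). PRIM1, of the primase, was higher at 24 h, at 0.46 (SE 0.057, adjusted p = 5.36e-06), but 15.1% of its exon bases belong also to other genes on the same strand.

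**Figure D5:**
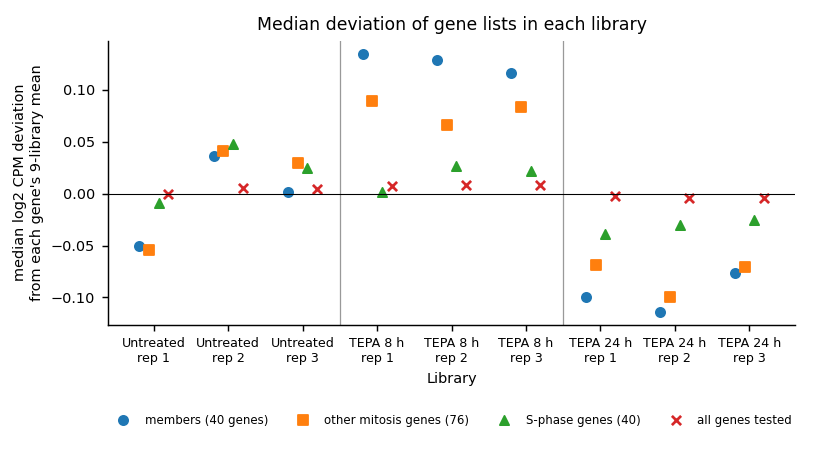
Median over each gene list (y axis, log2 CPM minus the gene's mean over the 9 libraries) in each library (x axis), for the 40 members, 76 other mitosis genes, 40 DNA replication and S-phase genes and all genes tested. The members and the other mitosis genes are highest in the 8 h libraries, at 0.12 to 0.14 for the members, and lowest in the 24 h libraries, at −0.11 to −0.077, while all genes stay near 0.

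Of 12 G2/M brakes and p53-linked genes, 3 were higher and 3 lower at 8 h, and 6 higher and 2 lower at 24 h. The list had 6 higher and 4 lower between the times, with medians of 0.0012, 0.12 and 0.050. At 8 h these shares, 25% and 25%, are near the 25.2% and 24.5% of all genes tested, and at 24 h they are 50% and 16.7%, against 25.7% and 26.8%. Between the times they are 50% and 33.3%, against 26% and 28.8%. CDKN1A, which encodes the cyclin-dependent kinase inhibitor p21, had means of 46.2 ± 3.35, 53.5 ± 1.83 and 61.0 ± 1.82 CPM. It rose at both times, by 0.21 (SE 0.053, adjusted p = 0.00335) and 0.40 (SE 0.052, adjusted p = 9.68e-06), and further between them, by 0.19 (SE 0.052, adjusted p = 0.00569). GADD45B, a stress gene that binds CDK1, was higher at both, at 0.94 (SE 0.047, adjusted p = 1.02e-09) and 0.56 (SE 0.047, adjusted p = 9.84e-08). Of the kinases that inhibit CDK1, PKMYT1 was higher at 8 h, at 0.33 (SE 0.047, adjusted p = 3.15e-05), and WEE1 was not called, with intervals of −0.055 to 0.16 and −0.11 to 0.11. CCNG2, a cyclin linked to arrest, was lower at 8 h, at −0.49 (SE 0.13, adjusted p = 0.00403), and higher at 24 h, at 0.41 (SE 0.12, adjusted p = 0.00809). SFN, which encodes 14-3-3σ, a cytoplasmic anchor of CDK1, was lower at 24 h, at −0.28 (SE 0.046, adjusted p = 8.54e-05).

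Of 22 genes linked to DREAM, MuvB or the E2F, RB and NF-Y families, 6 were higher and 5 lower at 8 h. There were 5 higher and 12 lower at 24 h, and 6 higher and 8 lower between the times. The medians were −0.050, −0.12 and −0.069. The shares higher and lower were 27.3% and 22.7% at 8 h and 22.7% and 54.5% at 24 h, against 25.2% and 24.5%, and 25.7% and 26.8%, of all genes. Between the times they were 27.3% and 36.4%, against 26% and 28.8%. The MuvB subunit LIN9 was lower at 24 h, at −0.28 (SE 0.060, adjusted p = 0.00108), and LIN54, which reads TTTGAA, was not called, with intervals of −0.16 to 0.060 and −0.095 to 0.12. The MuvB subunit LIN37 was higher at both times, at 0.66 (SE 0.15, adjusted p = 0.00209) and 0.59 (SE 0.15, adjusted p = 0.0039), from 1.93 CPM. Of its exon bases 26.7% belong also to another gene on the same strand. E2F4, the E2F of DREAM, was higher at 8 h, at 0.28 (SE 0.048, adjusted p = 0.000154), and E2F5 was lower at 24 h, at −0.59 (SE 0.068, adjusted p = 3.18e-06). RBL2, which encodes the pocket protein p130, was lower at 8 h, at −0.32 (SE 0.073, adjusted p = 0.00178), and higher at 24 h, at 0.30 (SE 0.071, adjusted p = 0.00189), while RBL1 (p107) was lower at 24 h, at −0.14 (SE 0.041, adjusted p = 0.0107). E2F1 was higher at 24 h, at 0.13 (SE 0.038, adjusted p = 0.00746), and E2F2 lower at both times, at −0.46 (SE 0.081, adjusted p = 0.000216) and −0.61 (SE 0.081, adjusted p = 1.27e-05). E2F8, a repressor that is itself periodic, had log2 fold changes of 0.15 (SE 0.059, adjusted p = 0.0464) and −0.15 (SE 0.059, adjusted p = 0.0487), and both calls were lost with DESeq2.

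Among 18 subunits and regulators of the APC/C, 7 were higher and 1 lower at 8 h, 7 higher and 6 lower at 24 h, and 5 higher and 6 lower between the times, with medians of 0.038, 0.080 and −0.028. The shares higher and lower were 38.9% and 5.56% at 8 h and 38.9% and 33.3% at 24 h, against 25.2% and 24.5%, and 25.7% and 26.8%, of all genes. Between the times they were 27.8% and 33.3%, against 26% and 28.8%. FZR1, which encodes CDH1, the activator of the APC/C after mitosis, was lower at 24 h, at −0.31 (SE 0.038, adjusted p = 4.70e-06), and FBXO5, which encodes the inhibitor EMI1, at −0.20 (SE 0.045, adjusted p = 0.00152). The subunit genes went both ways. At 24 h ANAPC13 was at 0.62 (SE 0.056, adjusted p = 1.87e-07) and CDC16 at −0.46 (SE 0.040, adjusted p = 1.31e-07), while ANAPC2 was at 0.47 (SE 0.045, adjusted p = 6.79e-07) and ANAPC16 at −0.30 (SE 0.049, adjusted p = 9.30e-05) at 8 h. ANAPC5 was higher at 8 h, at 0.19 (SE 0.038, adjusted p = 0.000778), and lower at 24 h, at −0.21 (SE 0.038, adjusted p = 0.000259).

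Of 11 D-type cyclins, their kinases and inhibitors of cyclin-dependent kinases, 9 were tested, and CDKN2A and CDKN2B had 0 counts in all libraries. At 8 h 1 was higher and 3 lower, at 24 h 2 were higher and 4 lower, and between the times 3 were higher and 4 lower, with medians of −0.023, −0.071 and −0.13. The shares higher and lower of the 9 were 11.1% and 33.3% at 8 h and 22.2% and 44.4% at 24 h, against 25.2% and 24.5%, and 25.7% and 26.8%, of all genes. Between the times they were 33.3% and 44.4%, against 26% and 28.8%. CCND1, the G1 cyclin D1, was higher at 8 h, at 0.33 (SE 0.042, adjusted p = 9.71e-06), with an interval of −0.031 to 0.15 at 24 h. CDKN2D, which encodes p19, was higher at 24 h, at 0.51 (SE 0.053, adjusted p = 9.52e-07), and CDKN1C, which encodes p57, was lower, at −0.96 (SE 0.16, adjusted p = 0.000133), from 4.11 CPM. Of the 7 markers of the cell line 5 were tested, of which 3 were higher and 1 lower at 8 h, 1 higher and 3 lower at 24 h, and 1 higher and 4 lower between the times. These are 60% and 20% at 8 h, 20% and 60% at 24 h and 20% and 80% between the times, against the same shares of all genes as for the cyclins. CDH1, which encodes the epithelial E-cadherin and is a different gene from FZR1, was at 0.624 CPM in untreated cells and 3.19 CPM at 24 h, a log2 fold change of 2.33 (SE 0.24, adjusted p = 1.06e-06). At 8 h its log2 fold change was −0.84, which did not pass the test, and between the times it was 3.17. The lowest log2 fold change of the tested markers at 24 h was −0.62.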

How the data were processed

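RNA-seq was analysed in 9 libraries of MDA-MB-231 cells. Per the submitters' processing notes and the study's methods, the authors used FastQC for quality, HISAT2 for alignment to GRCh38 (hg38) and featureCounts for strand-specific counting of read pairs over exons of Ensembl genes. The deposited values are raw counts per gene name, without normalization, and 0 columns of samples were left unused. Total counts ran from 34633755 to 49342659 per library, and limits on counts of 0 (3 counts) cover counting error only.

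In R 4.3.3, edgeR 4.0.16 kept genes by filterByExpr (minimum count 10) and scaled libraries by TMM factors between 0.978 and 1.04. One quasi-likelihood model was fitted to all 9 libraries, with a biological coefficient of variation of 0.0481. Each treated group was tested against untreated cells, and the later time against the earlier. Calls used a Benjamini-Hochberg adjusted p under 0.05 over all 16556 genes, with a log2 limit of 0.5 where stated. Adjusted p-values in the text are from this test. The SE is the size of the log2 fold change over the root of F, and intervals are at 95%. Replicates differed beyond sampling noise, with chi-square per degree of freedom from 2.39 to 21.2. Exon lengths and overlaps are from GENCODE release 44, a later annotation than the one used for counting, and promoters from RefSeq (GRCh38.p14).

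The members and lists were chosen with earlier results of these data known. All members could be named, with values in every library for the 4 highest and 4 lowest of each comparison and for 10 fixed genes. From each other list, up to 3 of the highest and 3 of the lowest called genes per comparison with a mean of at least 50 counts were eligible, with 14 fixed genes. One gene eligible by this rule is not reported here. Alternatives were DESeq2 1.42.0, scaling by RLE or by the upper quartile, no filter, 10 counts in every library, the 2 groups compared alone, a replicate block, mitochondrially encoded genes left out, a log2 limit of 0.5, and leaving out each library. Leaving out PRC1 and NUSAP1 was chosen after the data were seen.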

Additional observations from a re-analysis of the deposited data

Results flagged for a closer look

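The change from untreated cells differed between the times for 27 members, tested as the direct comparison of 24 h with 8 h (edgeR's quasi-likelihood test, Benjamini-Hochberg adjusted p under 0.05). All were lower at 24 h, as were 28.8% of all genes tested, and 26% of all genes were higher. In mitotic entry the log2 difference was −0.42 for CCNA2, −0.27 for CCNB1 and −0.22 for CDK1. For the kinases it was −0.63 for PLK1, −0.44 for AURKB and −0.17 for AURKA, and for the checkpoint genes −0.21 for BUB1B, −0.20 for BUB3 and −0.18 for BUB1. At the kinetochore it was −0.37 for CENPF, −0.34 for CENPA, −0.34 for CENPE and −0.19 for NDC80. Among spindle genes KIF23 differed by −0.47, PRC1 by −0.41, KIF2C by −0.33, TPX2 by −0.32, KIF11 by −0.23, KIF20A by −0.22 and ASPM by −0.21. INCENP differed by −0.34 and ANLN by −0.27, and MKI67 by −0.44 and TOP2A by −0.24. The difference was −0.68 for MYBL2, −0.43 for CDC20 and −0.37 for UBE2C.

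The named genes outside the 40 were chosen in part as the highest or lowest called genes of each comparison, this one included, so how many passed the test is set by that choice, and their differences are given as values. Those higher at 24 h included CCNG2 at 0.90, RBL2 at 0.62, CDKN2D at 0.45, ANAPC13 at 0.44 and CENPH at 0.38. Smaller differences were 0.36 for ANAPC16, 0.36 for PRIM1, 0.35 for PCNA, 0.20 for E2F1, 0.19 for CDKN1A and 0.14 for MASTL. TROAP was lower, at −0.89, CCNE1 at −0.60, E2F5 at −0.55, CDKN1C at −0.54 and POLE at −0.45. ANAPC5 was at −0.40, FZR1 at −0.39, CDC16 at −0.38, E2F4 at −0.38 and GADD45B at −0.38. PKMYT1 was at −0.31, E2F8 at −0.30, CCND1 at −0.27, SFN at −0.26 and ANAPC2 at −0.22. The smallest falls were −0.20 for CDC6, −0.18 for PBK, −0.16 for LIN9 and −0.15 for FBXO5.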

How the results depend on the processing

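The members' medians kept their direction under every alternative run. With a log2 limit of 0.5 the counts were 1 higher and 0 lower at 8 h, 0 higher and 2 lower at 24 h, and 2 lower between the times, against 10.1% and 7.67%, 10.2% and 8.46%, and 10.8% of all genes. When 1 library was left out, 0 to 2 members were higher beyond this limit at 8 h. At 24 h CCNA2 fell inside it without untreated replicate 3 (−0.497) or 24 h replicate 2 (−0.490). Without this limit, leaving out 1 library gave 17 to 24 members higher and 1 to 2 lower at 8 h. It gave 4 to 5 higher and 15 to 20 lower at 24 h, and 27 lower between the times in each case. In these fits 20.7 to 23.6% of all genes were higher and 21.5 to 24.1% lower at 8 h, 21.7 to 25.1% and 22.9 to 26.6% at 24 h, and 24.8 to 26.7% lower between the times. The medians then ran from 0.10 to 0.14 at 8 h, from −0.11 to −0.059 at 24 h and from −0.25 to −0.21 between the times. With the replicate number as a block 1 member was lower at 8 h, and 22 were higher, against 23.1% and 23.9% of all genes. Deviations from the group means correlated at −0.080 to 0.038 between libraries of the same number. For libraries of different numbers the correlations were −0.054 to 0.073. No effect shared by a number was visible, which does not show whether the samples were paired. Changes of sign were limited to genes near 0 that were not called, and the cause was not tested. With upper-quartile factors the log2 fold change at 8 h was 6.79e-05 for CCNB1 and 0.0092 for MAD2L1, at 24 h 0.010 for CDC25B, 0.010 for TTK, 0.0066 for MAD2L1, 0.018 for ASPM and 0.012 for PTTG1, and between the times 0.0018 for CDC25C and 0.012 for TTK. With RLE factors it was 0.0016 for CDC25C and 0.012 for TTK between the times, and with DESeq2 0.0032 and 0.014, with −0.0045 for CDC25B at 8 h. Without a filter it was −0.0067 for CDC25B at 8 h, −0.0018 for ANLN and −0.0017 for WEE1 at 24 h and 0.0091 for TTK between the times. With 10 counts in every library it was 0.0021 for ASPM at 24 h and 0.0077 for TTK between the times, where TTK was at 0.0052 without mitochondrially encoded genes. With the 2 groups alone the values between the times were 0.0039 for CDC25B, 0.015 for CDC25C, 0.00012 for PLK4, 0.026 for TTK and 0.011 for MAD2L1. Leaving out 1 library also changed signs at 8 h, with values of −0.038 to 0.059 for CDK1, −0.024 to 0.034 for CDC25B, −0.063 to 0.020 for MAD2L1, −0.0051 to 0.052 for ECT2 and −0.072 to 0.0016 for E2F5. Leaving out 1 library also changed signs at 24 h, with values of −0.012 to 0.061 for CCNB2, −0.051 to 0.014 for CDC25B, −0.053 to 0.027 for TTK, −0.078 to 0.026 for MAD2L1, −0.10 to 0.022 for CENPE, −0.082 to 0.034 for NDC80, −0.073 to 0.063 for ASPM, −0.047 to 0.037 for ANLN, −0.060 to 0.087 for MKI67, −0.046 to 0.0062 for PTTG1, −0.024 to 0.034 for WEE1, −0.019 to 0.068 for PKMYT1 and −0.028 to 0.041 for LIN54. Leaving out 1 library also changed signs between the times, with values of −0.055 to 0.0098 for CDC25B, −0.031 to 0.027 for CDC25C, −0.047 to 0.017 for PLK4, −0.036 to 0.045 for TTK, −0.066 to 0.040 for MAD2L1, −0.0046 to 0.031 for SPC25 and −0.011 to 0.068 for ECT2. No value whose sign changed passed the test.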
